A study of Mus musculus with 10 samples.

Results

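The tiles described here are stretches of 1 kb of mouse autosomes whose CpGs averaged close to the middle of the methylation scale in testis DNA. A tile was taken when at least 8 of its CpGs were covered and the mean of its level over the 5 control libraries lay between 45% and 55%. The level of a tile is the share of reads called methylated among all reads over its CpGs. These intermediate tiles numbered 938 of 51114 autosomal tiles with at least 8 CpGs, or 1.84%, and of 241398 tiles with any covered CpG. They held 10822 CpGs, with a median of 10 per tile and at most 58. The control level chose them, so it is given as a description only, and the CpG levels below come from the arsenic libraries, which the choice did not use.

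DNA methylation was read by reduced representation bisulfite sequencing (RRBS), which cuts DNA with a restriction enzyme to enrich CpG-rich fragments; after bisulfite treatment, unmethylated cytosines appear as thymines in the reads. The samples were bulk testis DNA of F2 mice in 2 groups, arsenic (5 libraries) and control (5 libraries). The labels give tissue, group and generation; strain, age, the ancestor that was exposed, dose and duration are not stated there. Reads summed over all covered cytosines, so that a read counts once for each cytosine it covers, came to 100355708 in arsenic library 3, the most, and 69771871 in control library 4, the fewest. Nothing in the labels ties each library to its own animal, so every p below reflects variation among these libraries, which could be purely technical.

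Methylation of a CpG on a single DNA molecule is present or absent, and most mammalian CpGs are methylated in nearly all molecules or, in CpG islands, in nearly none. An intermediate level can arise where molecules differ, as between the parental alleles of an imprinted region or between cell types, or where fully methylated CpGs lie beside unmethylated ones. The table holds counts per cytosine and not reads, so molecules, alleles and cell types cannot be told apart here. Male germ cells lack the methylation that marks the maternal allele of imprinted genes and carry the paternal marks. In 7 windows at starts of maternally methylated genes, mean levels were 5.78% to 15.2% in arsenic and 7.92% to 16.3% in control. The window upstream of H19, a paternal mark (chromosome 7, 142579646 to 142583146, 3 CpGs), stood at 95.6% ± 2.17 (SD, n = 5) in arsenic and 95.2% ± 2.85 in control (SD, n = 5). The other paternal window measured, for Rasgrf1 (chromosome 9, 89877775 to 89881775, 5 CpGs), was lower. It stood at 72.4% ± 7.18 in arsenic and 73.5% ± 6.60 in control (SD, n = 5 each).

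Single CpGs are best seen in sequence. The RefSeq promoter windows of 27 intermediate tiles held a measured CpG, and the 5 windows with the most measured CpGs are shown, chosen after their values were seen. Each runs 5′ to 3′ on the strand of its gene, on the assembly GRCm38.p6 behind mm10, from 250 bp before to 50 bp after the start. Capitals mark the CpGs measured in these tiles. The windows are chr1:140656353-140656652 (minus strand), chr7:45211834-45212133 (minus), chr7:37669549-37669848 (plus), chr14:45664386-45664685 (minus) and chr3:78919584-78919883 (minus).
4930590L20Rik: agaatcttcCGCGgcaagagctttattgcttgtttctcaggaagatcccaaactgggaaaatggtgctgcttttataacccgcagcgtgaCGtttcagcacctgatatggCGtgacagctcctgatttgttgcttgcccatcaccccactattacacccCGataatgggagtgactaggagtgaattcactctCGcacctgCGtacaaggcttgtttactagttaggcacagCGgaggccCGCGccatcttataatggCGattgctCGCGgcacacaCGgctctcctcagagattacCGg
Dkkl1: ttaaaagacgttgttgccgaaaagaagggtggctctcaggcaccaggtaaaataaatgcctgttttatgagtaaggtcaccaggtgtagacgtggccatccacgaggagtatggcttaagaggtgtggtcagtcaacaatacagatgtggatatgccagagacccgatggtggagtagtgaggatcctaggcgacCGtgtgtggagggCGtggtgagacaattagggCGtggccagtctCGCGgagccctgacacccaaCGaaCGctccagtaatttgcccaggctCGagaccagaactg
4930505M18Rik: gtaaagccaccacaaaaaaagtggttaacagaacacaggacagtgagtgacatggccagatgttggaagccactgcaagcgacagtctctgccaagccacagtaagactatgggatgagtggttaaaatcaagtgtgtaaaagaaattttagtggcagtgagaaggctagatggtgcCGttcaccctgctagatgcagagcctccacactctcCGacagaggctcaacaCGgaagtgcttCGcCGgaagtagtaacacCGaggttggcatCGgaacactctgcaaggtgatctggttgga
Gm34360: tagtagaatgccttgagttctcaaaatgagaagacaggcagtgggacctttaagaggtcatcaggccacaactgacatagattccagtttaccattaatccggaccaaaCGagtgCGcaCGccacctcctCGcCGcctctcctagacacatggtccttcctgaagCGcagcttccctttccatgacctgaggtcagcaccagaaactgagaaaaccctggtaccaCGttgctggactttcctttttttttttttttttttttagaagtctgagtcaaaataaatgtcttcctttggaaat
Gm38542: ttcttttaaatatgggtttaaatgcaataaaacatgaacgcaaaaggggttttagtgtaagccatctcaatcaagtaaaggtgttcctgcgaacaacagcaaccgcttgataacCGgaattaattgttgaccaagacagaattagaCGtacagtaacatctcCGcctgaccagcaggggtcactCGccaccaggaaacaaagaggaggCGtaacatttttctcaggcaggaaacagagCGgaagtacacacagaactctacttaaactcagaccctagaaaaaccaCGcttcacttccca

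The sequences show both ways in which a tile can reach the middle of the scale. In the window of 4930590L20Rik all 15 measured CpGs were themselves intermediate, at 36.7% to 49.8% in arsenic and 35.1% to 59.0% in control. The 7 CpGs of the Gm38542 window stood at 53.0% to 61.3% in arsenic and 45.5% to 52.5% in control. Dkkl1 encodes a protein of the sperm acrosome, and its window was unmethylated: the 8 CpGs stood at 0% to 4.76% in arsenic and 0% to 2.78% in control. A level of 0% here rests on 92 to 111 reads per CpG and allows up to 2.70% to 3.26% by counting error. Further into the gene the other 11 CpGs of the Dkkl1 tile ran from 2.72% to 90.2% in arsenic and 0.935% to 88.6% in control, with the highest value farthest from the start. The windows of 4930505M18Rik and Gm34360 were intermediate with an exception each. In the window of 4930505M18Rik, 21 bp before the start, the CpG stood at 2.82% in arsenic and 2.35% in control among 6 others at 41.9% to 53.6% in arsenic and 52.3% to 61.9% in control. In the window of Gm34360 the CpG 25 bp before the start was methylated in 0 of 224 reads in arsenic and 0 of 275 in control, which allows up to 1.34% and 1.09%, while its 6 neighbours stood at 40.2% to 53.7% in arsenic and 40% to 56.4% in control.

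Across the set, most CpGs were intermediate themselves. Of the 10822 CpGs, 7608 (70.3%) stood at 30% to 70% in the reads of the 5 arsenic libraries summed, 1662 (15.4%) lay below 30% and 1552 (14.3%) above 70%. The median CpG had 265 such reads and the least covered 61. At 265 reads, a level of 49.8% has a 95% Wilson interval of 43.8% to 55.8%. At 61 reads the interval around 49.2% is 37.1% to 61.4%. Intervals and limits cover counting error only, since reads without molecular identifiers are not independent molecules. The most frequent CpG levels were 40% to 50% (2533 CpGs) and 50% to 60% (2416 CpGs), and 505 CpGs lay under 10% and 332 above 90%. In tiles at 20% to 30% in control (2317 tiles) 14.4% of CpGs stood at 30% to 70%, in tiles at 70% to 80% (2737 tiles) 19.16%, and in all 51114 tiles 5.81%. The range of 30% to 70% is centred on the level that chose the tiles, so a higher share in them follows in part from the choice.

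**Figure D1:**
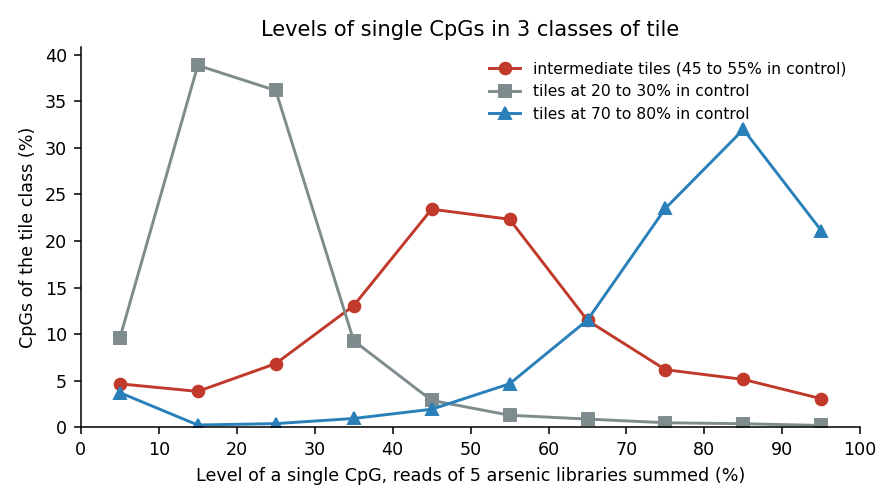
Levels of single CpGs (x axis, percent, in steps of 10 points, from reads of the 5 arsenic libraries summed) against the share of CpGs of each tile class (y axis, percent). The intermediate tiles have 1 broad peak between 40% and 60% with low tails on both sides, and the 2 comparison classes peak on their own side of the scale.

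By tile, 526 (56.1%) were uniform, meaning that at least 75% of their CpGs stood at 30% to 70%. Another 126 (13.4%) were split, with at least 75% of CpGs outside that range and at least 1 on each side. The remaining 286 (30.5%) were graded. All CpGs were at 30% to 70% in 253 tiles (27.0%), and none were in 58 (6.18%). At least 1 CpG below 30% and 1 above 70% were found together in 420 tiles (44.8%). A mixing index gave the same picture on a continuous scale. It is the variance of CpG levels in a tile beyond counting error, as a share of the largest variance that mean allows. Counting error was taken as independent between CpGs, although CpGs on the same reads share it. The index runs from 0 (no spread beyond counting error, with negative values set to 0) to 1 (CpGs fully on or off). Its median was 0.0867, with quartiles of 0.0250 and 0.212 and a maximum of 0.854. Thus most tiles lay nearer the low end of the index. They were not more even than tiles in general. The median index was 0.0188 over all 51114 tiles, 0.0186 in tiles at 20% to 30% and 0.0966 in tiles at 70% to 80%.

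The shares of the shapes were alike over the libraries. In single libraries 43.3% ± 2.10 of the tiles were uniform in arsenic and 43.8% ± 3.8 in control (SD, n = 5 each), and 13.9% ± 0.503 were split in arsenic and 12.7% ± 0.937 in control. Single libraries gave fewer uniform tiles than the summed reads, and each CpG has fewer reads there. The share of CpGs at 30% to 70% was 63.2% ± 1.21 in arsenic and 63.8% ± 1.96 in control. The deviation of each CpG from its tile correlated between the summed arsenic and the summed control reads with Pearson's r = 0.953 over 10822 CpGs. That is a description across CpGs, which share reads with their neighbours.

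To ask which CpGs stood apart from the rest of their tile in the replicate libraries, limma was fitted to the deviation of each CpG from the other CpGs of its tile in the 5 arsenic libraries, over all 770899 CpGs of tiles with at least 8. A CpG was called at a Benjamini-Hochberg (BH) adjusted p under 0.05 and a deviation of at least 20 percentage points. In intermediate tiles 3047 CpGs were called, or 28.2%, of which 1576 (14.6%) lay above and 1471 (13.6%) below their tile. Over all CpGs tested the called share was 3.57%, with 1.77% above and 1.8% below. Tiles near 0% or 100% leave little room for a deviation of 20 points, so the shares are not comparable as a property of the tiles. The control libraries gave 2997 called CpGs (27.7%, against 3.56% of all CpGs) by the same test.

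In the most even of the uniform tiles, CpG levels differed little within the tile. The rule for examples took the 6 uniform tiles with the lowest mixing index, taking the lowest variance of CpG levels among the 21 with an index of 0. The measured CpGs of these 6 tiles spanned 80 to 199 bp and not the whole tile, and CpGs this close can share reads. The tile in Plxnc1, a semaphorin receptor (mm10, chromosome 10, 94904001 to 94905000), had 8 CpGs at 43.8% to 46.8% in arsenic and 46.2% to 55.2% in control. Its tile level was 34.7%, 39.1%, 45.6%, 52.7% and 51.04% in arsenic libraries 1 to 5, against 51.5%, 37.6%, 42.4%, 57.7% and 54.5% in control libraries 1 to 5. The groups overlapped, and libraries of either group ranged more widely than the CpGs within the tile. The rule took tiles with a narrow spread of CpG levels in the summed arsenic reads, so this contrast follows in part from the choice. The CpG levels are also summed over 5 libraries, while the library levels are single. The tile in Ankrd36 (chromosome 11, 5571001 to 5572000) likewise had 8 CpGs at 41.7% to 45.9% in arsenic and 37.6% to 55% in control, with library levels of 29.2% to 57.5% in arsenic and 27.6% to 57.8% in control. The tile 9692 bp from Zfp945, a zinc finger gene (chromosome 17, 22877001 to 22878000), held 9 CpGs at 52.0% to 59.4% in arsenic and 46.7% to 62.0% in control. The other 3 lay over 10 kb from any protein-coding gene, on chromosome 11 (121014001 to 121015000) and chromosome 13 (80596001 to 80597000 and 52059001 to 52060000). In the last, library levels were 30.6% to 68.2% in arsenic and 26.6% to 67.8% in control, on 19.4 reads per CpG and library.

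By the median, libraries spread more widely in uniform tiles than in the other shapes. The SD of the tile level over the 5 arsenic libraries had a median of 6.56 points in uniform, 4.85 in graded and 4.06 in split tiles, and over the 5 control libraries 6.96, 5.40 and 4.43 points. Counting error is itself larger for CpGs near 50% than near 0% or 100%, and the part of it in this order was not tested. The CpGs of a uniform tile also moved together between libraries: the common movement took a median of 40.2% of the spread of CpG levels over arsenic libraries in uniform tiles, 22.3% in graded and 19.6% in split tiles. The same median was 37.0% in tiles at 20% to 30%, 20.9% in tiles at 70% to 80% and 19.6% in all 51114 tiles. A high share was thus not particular to uniform intermediate tiles. CpGs on the same reads share their molecules.

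Split tiles came in 2 layouts. In 64 of the 126 the CpGs switched sides of the scale once along the tile, and the best single break took a median of 93.1% of the variance of CpG levels. In the other 62 they switched at least 2 times, and the best break took 29.9%. Of the graded tiles, 166 switched once and 70 at least 2 times.

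Among the named split tiles, a single boundary lay 6264 bp from Lhx2, a LIM homeobox transcription factor gene (chromosome 2, 38376001 to 38377000). The 9 CpGs from 38376015 to 38376134 stood at 0% to 4.44% in arsenic and 0% to 6.84% in control, and the 3 CpGs from 38376678 to 38376807 at 78.9% to 91.6% in arsenic and 78.7% to 91.9% in control. Levels of 0% in arsenic rest on 174 to 183 reads and allow up to 1.72%. The break took 99.4% of the variance. The level of the whole tile was 48.9%, 29.2%, 41.7%, 29.9% and 37.1% in arsenic libraries 1 to 5, against 36.0%, 50%, 59.8%, 63.6% and 42.7% in control libraries 1 to 5. The groups overlapped, with an unadjusted p of 0.036 and a BH-adjusted p of 0.854 in the quasi-binomial model described below. No CpG of the tile differed by more than 6.84 points between the groups. With each CpG weighted equally, the tile stood at 21.9% in arsenic and 22.5% in control. The low CpGs had 174 to 183 reads each in arsenic and 108 to 120 in control, and the high ones 279 to 603 in arsenic and 320 to 695 in control. No CpG of the tile was near the middle of the scale.

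At H19, an imprinted long noncoding RNA gene expressed from the maternal allele, the boundary lay across the end of the gene where transcription starts. The tile (chromosome 7, 142578001 to 142579000) had 5 CpGs at 10.6% to 21.1% in arsenic and 9.13% to 14.3% in control, all inside the annotated gene, which ends at 142578146. Its other 5 CpGs, from 142578768 on and outside the gene, stood at 81.3% to 98.5% in arsenic and 76.8% to 95.6% in control. The tile level was 63.1%, 55.8%, 66.7%, 54.7% and 60.1% in arsenic libraries 1 to 5, against 56.9%, 57.0%, 44.9%, 54.3% and 60.4% in control libraries 1 to 5. The groups overlapped (quasi-binomial model, unadjusted p = 0.085, BH-adjusted p = 0.877). H19 thus entered the set through CpGs with high and low levels side by side, and none of its CpGs was at 30% to 70%.

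The tile 171 bp from Tdrd1, which encodes a tudor protein of the piRNA pathway in germ cells (chromosome 19, 56825001 to 56826000), sloped towards the gene. From the far to the near side its 8 CpGs stood at 81.7%, 70.2%, 57.5%, 36.7%, 17.7%, 14.7%, 20.8% and 12.7% in arsenic. In control they stood at 83.2%, 68.6%, 52.2%, 33.1%, 27.1%, 14.6%, 20.95% and 17.6%. Both groups passed to low values over the same 760 bp, and the tile averaged 48.3% ± 4.69 in arsenic and 48.3% ± 6.11 in control (SD, n = 5 each). A slope was also found where Dnmt3l, a cofactor of the germline DNA methyltransferases, overlaps Aire, a regulator of self-antigen expression in the thymus (chromosome 10, 78042001 to 78043000). Its 10 CpGs ran from 85.3% to 17.5% in arsenic and from 82.3% to 17.1% in control, in a graded tile whose right neighbour stood at 5.40% in arsenic.

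Of the split tiles, 39 held 1 or more isolated low CpGs, that is, CpGs below 30% in arsenic with both adjacent CpGs of the tile above 70%. In the tile 3131 bp from Tmem40 (chromosome 6, 115725001 to 115726000) 6 CpGs stood at 91.9% to 98.9% in arsenic and 87.6% to 95.6% in control, and 3 CpGs between them at 0.353% to 1.02% in arsenic and 0.405% to 0.811% in control. One of the 3, at 115725107, lies 2 bp from a CpG at 95.5% in arsenic and 95.6% in control. The tile level was 55.5%, 54.2%, 55.2%, 55.3% and 55.7% in arsenic libraries 1 to 5, against 53.0%, 54.8%, 53.9%, 54.9% and 55.04% in control libraries 1 to 5. In this tile every library gave nearly the same value, unlike in the uniform tiles above. Not all split tiles were so even. Near Lhx2 the libraries ran from 29.2% to 48.9% in arsenic and from 36.0% to 63.6% in control. In the tile within Cda, described next, they ran from 49.8% to 54.1% in arsenic and from 45.2% to 58.4% in control. In the tile within Cda, the cytidine deaminase gene (chromosome 4, 138346001 to 138347000), 6 CpGs stood at 84.2% to 99.05% in arsenic and 92.9% to 98.2% in control, and 3 at 0% to 0.952% in arsenic and 0% to 1.79% in control. The CpG at 0% had 104 reads in arsenic and 111 in control, which allows up to 2.88% and 2.70%. A split tile in Sox5, a transcription factor gene (chromosome 6, 144543001 to 144544000), had 3 low and 5 high CpGs. The other 3 split tiles with the highest mixing index lay over 10 kb from a gene, on chromosome 17 (79111001 to 79112000), chromosome 2 (117518001 to 117519000) and chromosome 10 (19409001 to 19410000). On chromosome 17 the low CpGs formed a block: 4 neighbouring CpGs at 0% to 3.5% in arsenic and 0% to 7.44% in control lay between 3 and 2 CpGs at 87.3% to 96.4% in arsenic and 90.8% to 96.9% in control. Tile levels weight CpGs by reads. With each CpG weighted equally, the tile near Tmem40 stood at 63.5% in arsenic and 61.97% in control. That in Cda stood at 62.7% in arsenic and 63.96% in control, and that at 117518001 on chromosome 2 at 71.3% and 69.99%. On chromosome 10 the values were 62.1% and 60.85%, and on chromosome 17 they stayed near the middle, at 52.4% and 53.4%. Near Tmem40 the low CpGs had 197 to 566 reads in arsenic, and the high ones 90 to 292.

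**Figure D2:**
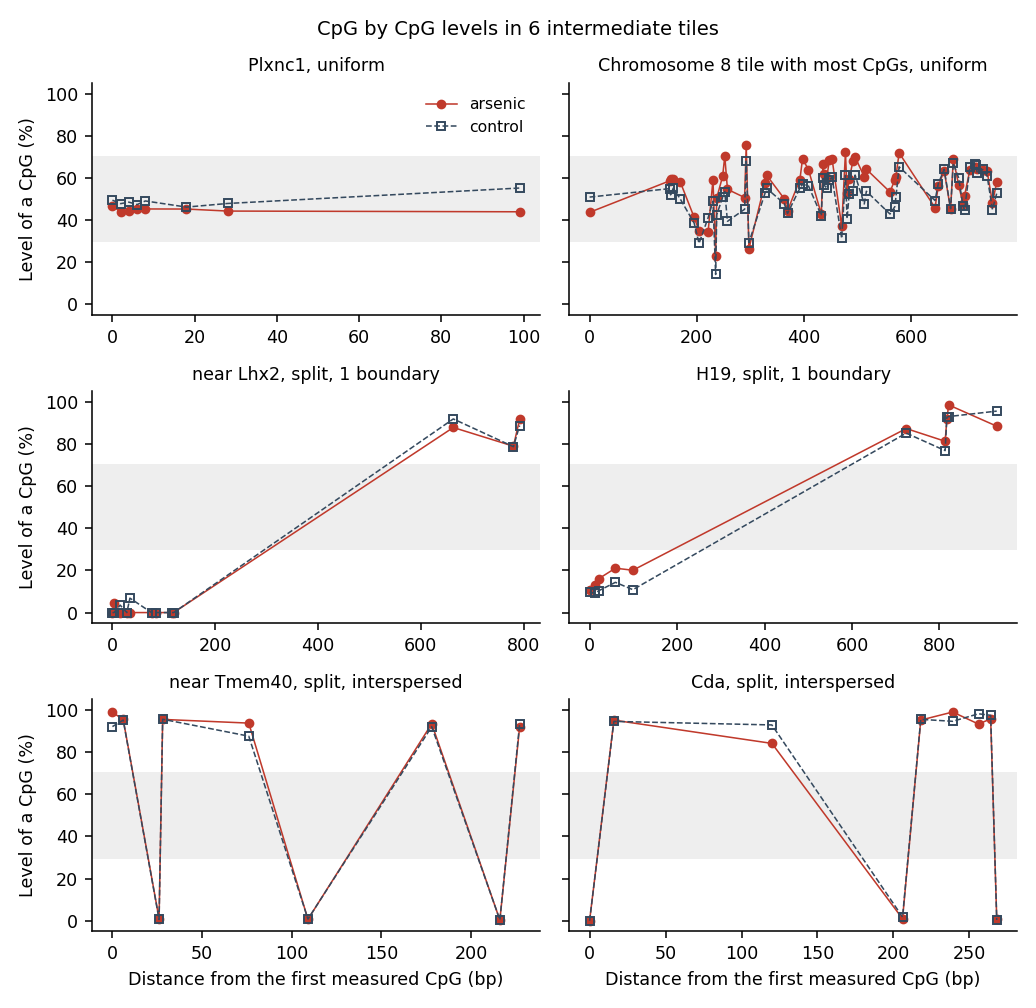
Level of each CpG (y axis, percent) against its distance from the first measured CpG of the tile (x axis, bp) in 6 intermediate tiles, with arsenic as filled circles and control as open squares (reads of 5 libraries summed each). The grey band is 30% to 70%: the CpGs of Plxnc1 and most of the chromosome 8 tile lie in it, those near Lhx2 and at H19 switch once, those near Tmem40 and in Cda switch repeatedly, and arsenic and control follow each other.

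Isolated low CpGs numbered 82 in 52 intermediate tiles (5.54%). Their median level was 0.716% in arsenic, and 76 of them stood under 5% in arsenic, 74 in both groups. Of the 47 covered on both strands, 46 were below 30% on both. Such CpGs were found in 24.2% of tiles at 70% to 80%, in 0.0863% of tiles at 20% to 30%, and in 4.06% of all 51114 tiles, and the share depends on how many methylated neighbours a tile has to offer. A genome that differs from mm10 at the site, so that no CpG is present, would also be read as unmethylated; strain is not in the labels and sequence was not called, so this was not tested. The reverse, a CpG above 70% between 2 below 30%, was counted 33 times.

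The strands gave like levels. Of 5104 CpGs covered on both strands, plus and minus levels had Pearson's r = 0.871, a description over CpGs. Of 3906 such CpGs at 30% to 70%, 3517 were in that range on each strand. The strands differed by more than 50 points at 15 CpGs (0.294%).

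The median difference between adjacent CpGs of intermediate tiles was higher at longer distances. It was 6.21 points at 2 to 10 bp, against 5.84 in tiles at 70% to 80%, 2.57 in tiles at 20% to 30% and 1.08 in all tiles with at least 8 CpGs. The value at 2 to 10 bp rests on 2691 pairs of intermediate tiles, and the median was 7.34 at 11 to 50 bp (4841 pairs), 9.96 at 51 to 100 bp (1508 pairs), 12.9 at 101 to 300 bp (741 pairs) and 27.8 at 301 to 999 bp (103 pairs). In uniform tiles it was 5.21 points at 2 to 10 bp and 12.6 at 301 to 999 bp, and in split tiles 6.39 and 57.9 points. At H19 and near Lhx2 the boundary fell in such a long gap. Of the adjacent pairs of split tiles, 21.4% at 2 to 10 bp and 18.8% at 11 to 50 bp differed by more than 50 points, against 1.66% and 1.18% of those of uniform tiles. The shapes were defined from these same CpG levels, so the contrasts between shapes follow in part from the definition. Split tiles also spanned more sequence, with a median of 526.5 bp between the first and last CpG, against 473 bp in graded and 333 bp in uniform tiles. CpGs within about a read length share reads, which lowers their differences.

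**Figure D3:**
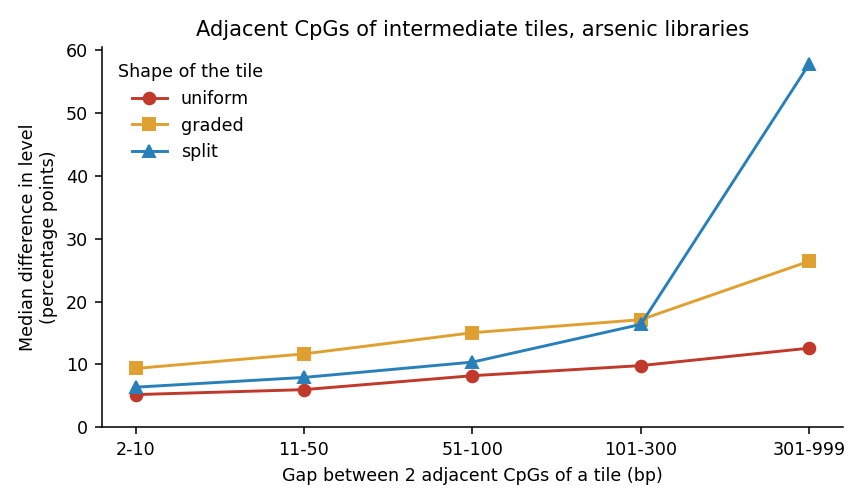
Median difference in level between adjacent CpGs of intermediate tiles (y axis, percentage points) by the gap between them (x axis, bp, 5 classes), for uniform, graded and split tiles in the summed arsenic reads. The difference grows with the gap in uniform and graded tiles and jumps to 57.9 points in split tiles at gaps of 301 to 999 bp, a class of 34 pairs. The shapes were defined from these same levels, so differences between the shapes follow in part from the definition.

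The surroundings differed by shape. Uniform tiles often continued into intermediate sequence: of 245 covered neighbour tiles (at least 3 CpGs), 45.3% stood at 30% to 70%, against 24.1% of 191 neighbours of graded tiles, 10.7% of 84 neighbours of split tiles and 8.37% of neighbours of all tiles with at least 8 CpGs. Both neighbours were covered for 71 intermediate tiles. Among these, 21 (29.6%) lay between a neighbour below 20% and one above 80%: 2 of 27 uniform, 13 of 31 graded and 6 of 13 split tiles.

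By position, 7.07% of intermediate tiles lay at gene starts, a share between those of the comparison classes. Of 905 tiles with annotated starts (the 33 on chromosome 18 have none in the table used), 64 (7.07%) lay within 1 kb of the start of a protein-coding gene, 355 (39.2%) elsewhere inside such genes and 486 (53.7%) between genes. Over all tiles with at least 8 CpGs the shares were 25.5%, 43.1% and 31.3%. Near starts lay 12.04% of tiles at 20% to 30% and 3.14% of tiles at 70% to 80%. The few at starts were of another shape, with 32.8% uniform, 51.6% graded and a median mixing index of 0.175, while between genes 60.3% were uniform and the median was 0.0630. All autosomes held some, from 1.38% of eligible tiles on chromosome 1 to 2.26% on chromosome 6. Of the 1 Mb windows with any, 523 of 698 had exactly 1, and the richest, on chromosome 7 from 45 Mb, had 8, among them the tiles of Nosip and Dkkl1.

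The tiles with the most CpGs were 3 from a cluster at 20 to 21 Mb of chromosome 8 and 1 in Nosip. On chromosome 8 the tile at 20122001 to 20123000 had 58 CpGs, of which 52 stood at 30% to 70%. The next, at 20297001 to 20298000, had 45 CpGs, 39 of them at 30% to 70%, and the one at 20424001 to 20425000 had 39 CpGs, 31 of them in that range. The lowest CpG level in these tiles was 23.0%, 4.60% and 1.72% in arsenic, and 14.2%, 5.63% and 0% in control, where 0 of 156 reads allows up to 1.92%. The Nosip tile (chromosome 7, 45076001 to 45077000; the nitric oxide synthase-interacting protein) had 44 CpGs, of which 13 lay below 30%, 29 at 30% to 70% and 2 above. Repeats and duplicated genes were not annotated here, and reads from near-identical copies would be averaged in 1 tile. One tile on chromosome 2 (98666001 to 98667000) had 43568 reads per CpG and library, against a median of 57.3, and 7 tiles had over 200.

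Few of the listed genes had an intermediate tile. Of 14235 protein-coding genes with an eligible tile inside or within 1 kb, 456 (3.20%) had an intermediate one. The imprinted lists had 0 of 18 maternally methylated genes, 1 of 5 paternally methylated (H19) and 0 of 18 others. Of 24 germline genes Tdrd1 alone had one, of 14 genes of the DNA methylation machinery Dnmt3l, and 0 of 16 late spermatogenesis genes had one. Pecam1, an adhesion molecule of endothelial cells, was the only one of 16 genes of somatic testis cells, with 19 CpGs all at 30% to 70% (chromosome 11, 106699001 to 106700000) and 53.1% ± 6.97 in arsenic and 54.9% ± 8.0 in control (SD, n = 5 each). Among 39 Hox genes, Hoxa10 and Hoxa11 shared 1 tile, and among 39 protocadherin genes 5 shared 2 tiles. There were 7 of 271 zinc finger (Zfp) genes, 3 of 82 Sox, Fox, Tbx, Gata and Pax genes (Foxh1, Foxp4 and Sox5) and 1 of 25 olfactory receptor genes (Olfr284). These counts of 0 to 7 are too small to set against the 3.20% of all genes.

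The design compares arsenic with control. A quasi-binomial logistic model of methylated among all reads, with a term for group, was fitted to all 165978 tiles with at least 3 CpGs. P-values were BH-adjusted over them, and a call needed an adjusted p under 0.05 and 10 percentage points. It called 0 of the 938 intermediate tiles and 0% of all tiles; the lowest adjusted p of an intermediate tile was 0.704. An unadjusted p under 0.05 was found at 74 (7.89%), against 5.8% of all tiles. Of these, 53 were lower in arsenic (5.65%, against 3.34% of all tiles) and 21 higher (2.24%, against 2.47%). The share at unadjusted p under 0.05 was 13.4% in tiles at 20% to 30%, 6.61% at 70% to 80% and 8.27% in all 51114 tiles with at least 8 CpGs, so the intermediate tiles did not exceed tiles of like CpG number. Limma on log2 ratios called 0 of the intermediate tiles and 1 of all tiles (0.0006%). It gave 28 intermediate tiles at an unadjusted p under 0.05 (2.99%, against 5.14% of all tiles). A binomial test that takes reads as replicates called 41 (4.37%, against 1.20% of all tiles). The 5 arsenic and 5 control levels did not overlap at 6 tiles (0.640%, against 0.832% of all tiles). Of these, 1 was higher in arsenic (0.107%, against 0.349% of all tiles) and 5 were lower (0.533%, against 0.483%). At the single CpGs, the same model called 0 of 10822 and 0% of all CpGs, with 634 (5.86%) at an unadjusted p under 0.05, against 7.52% of all CpGs. Of these CpGs, 247 (2.28%) were higher in arsenic, against 3.29% of all, and 387 (3.58%) were lower, against 4.23% of all.

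The mean over the intermediate tiles was 47.5%, 49.0%, 48.8%, 49.5% and 50.2% in arsenic libraries 1 to 5, against 49.1%, 50.4%, 49.5%, 51.1% and 50.3% in control libraries 1 to 5. The groups overlapped, and the means were 49.0% ± 0.999 in arsenic and 50.1% ± 0.771 in control (SD, n = 5 each), a difference of -1.06 points. The difference was -0.678 points without arsenic library 1, and -0.647 without control libraries 4 and 5. Because control levels chose the tiles, their mean near 50% is fixed in control and free in arsenic. The arsenic mean of a tile lay within 45% to 55% in 618 of 938 tiles (65.9%) and ranged from 18.6% to 64.5%. Of the tiles, 550 were lower and 388 higher in arsenic, with a median difference of -0.666 points, against -0.206 over all 51114 tiles, of which 55.2% were lower in arsenic. A difference of at least 10 points was seen in 30 tiles lower and 10 higher in arsenic. The same count was not made over all tiles, so these counts are not read as a trait of the intermediate tiles. Chosen by the same window on the arsenic libraries instead, the set had 896 tiles, 618 of them shared.

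The lowest arsenic mean was in Aldh1a3, which encodes a retinoic acid-synthesising enzyme (chromosome 7, 66405001 to 66406000), a tile singled out after its values were seen. It stood at 10.04%, 10.05%, 21.6%, 23.9% and 27.2% in arsenic libraries 1 to 5, against 19.12%, 63.3%, 34.7%, 66.3% and 44.9% in control libraries 1 to 5. The groups overlapped through control library 1, and the control libraries themselves spread widely (unadjusted p = 0.0083, BH-adjusted p = 0.808). All 8 of its CpGs were below 30% in arsenic.

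The 4 tiles with the smallest p in each direction did not pass the test. The smallest p was that of a tile on chromosome 18 (54158001 to 54159000), over 10 kb from any protein-coding gene. It stood at 43.9%, 34.1%, 37.1%, 38.7% and 35.1% in arsenic libraries 1 to 5, against 56.2%, 49.8%, 56.4%, 47.7% and 59.5% in control libraries 1 to 5. The groups did not overlap (unadjusted p = 0.00018, BH-adjusted p = 0.704), and its 9 CpGs were at 29.9% to 46.4% in arsenic and 40.2% to 66.1% in control. A tile on chromosome 2 (61488001 to 61489000) averaged 37.5% ± 3.65 in arsenic and 49.0% ± 4.90 in control (SD, n = 5 each), again without overlap. The tile on chromosome 10 (37450001 to 37451000) averaged 36.9% ± 4.66 in arsenic and 46.9% ± 5.60 in control, and that in Tmem117 (chromosome 15, 94995001 to 94996000) 44.9% ± 4.76 in arsenic and 54.2% ± 2.43 in control; in both, libraries of the groups overlapped.

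Higher in arsenic was a tile in Kcnip1, a potassium channel-interacting protein (chromosome 11, 33873001 to 33874000), at 57.8% ± 3.10 in arsenic and 45.3% ± 8.02 in control (SD, n = 5 each). The tile in Mast1, a microtubule-associated kinase gene (chromosome 8, 84923001 to 84924000), averaged 56.0% ± 3.28 in arsenic and 48.4% ± 6.46 in control. The tile 1264 bp from the olfactory receptor gene Olfr951 (chromosome 9, 39396001 to 39397000) averaged 61.5% ± 2.83 in arsenic and 53.5% ± 4.29 in control. On chromosome 1 (150082001 to 150083000) the values were 64.5% ± 7.11 in arsenic and 50.8% ± 5.0 in control. There 9 of 10 CpGs were higher in arsenic, and the remaining CpG was methylated in 0 of 271 reads in arsenic and 0 of 204 in control, which allows up to 1.11% and 1.47%. All 7 of these tiles had a BH-adjusted p of 0.808, and the 4 higher in arsenic overlapped with control. Each of the 8 was uniform or graded, and none was split.

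**Figure D4:**
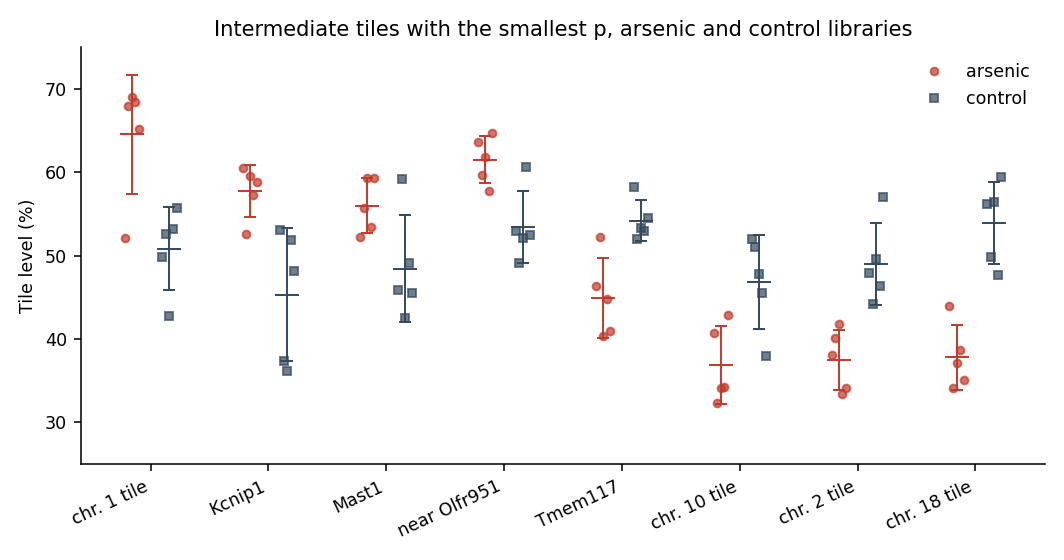
Tile level (y axis, percent) in the 5 arsenic libraries (circles, left of each pair) and the 5 control libraries (squares, right) for the 4 intermediate tiles with the smallest p in each direction, with bars for mean ± SD (n = 5). The axis starts at 25%. The chromosome 2 and chromosome 18 tiles are the pairs without overlap, and none passed the test after adjustment.

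Tiles close to either side of the window's ends had nearly the same control level. Just inside the low end the control means were 45.002%, 45.05% and 45.08% and the arsenic means 32.3%, 48.3% and 48.1%; just outside it, the control means were 44.96%, 44.97% and 44.99% and the arsenic means 39.5%, 37.0% and 53.1%. At the high end, tiles just inside had control means of 54.97%, 54.98% and 54.99% and arsenic means of 62.4%, 56.2% and 46.5%, and those just outside had control means of 55.01%, 55.02% and 55.03% and arsenic means of 51.5%, 43.9% and 56.1%. Over all eligible tiles the stretch from 40% to 60% was the sparsest part of the scale, with 448 to 493 tiles per 5 points, against 14924 at 0% to 5% and 9133 at 90% to 95%.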

How the data were processed

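Testis DNA was sequenced by RRBS in 5 arsenic and 5 control libraries. Trim Galore 0.6.5, Bismark 0.22.3, methylKit 1.22.0 and mm10 as genome build come from the submitters' processing notes, which state no settings here. Per the file headers, the authors deposited counts per cytosine and library of all, methylated and unmethylated reads. The headers do not state whether the counts were normalised. The lowest coverage found in the counts was 10. Titles gave each library its group and number.

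From these counts, both strands of a CpG were summed and CpGs were assigned to 1000 bp tiles. CpG levels for shapes came from reads summed over the 5 arsenic libraries. The quasi-binomial model squeezed the dispersion across tiles, did not let it fall under 1, and used an F test. Limma 3.58.1 tested deviations of CpGs from the other CpGs of the tile on the arcsine square root scale. Both were tested on simulated data. Python 3.11.15, numpy 2.4.6, scipy 1.17.1, pandas 2.3.3 and R 4.3.3 were used. Genes and promoter sequences came from RefSeq tables of GRCm38.p6; 99790 of 99798 covered CpGs in the promoter windows fell on a CG there. Exons, repeats and the genome sequence were not used here.

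The members and lists were chosen with earlier results of these data known. The rule for named tiles took the 6 split tiles with the highest and the 6 uniform tiles with the lowest mixing index, the 4 tiles with the most CpGs, the 4 of smallest p on either side, those at imprinted, germline and DNA methylation genes, and 3 on each side of each end of the window. Genes were named within 10 kb. Lists covered imprinted, germline, late spermatogenesis, DNA methylation, somatic testis, Hox, protocadherin, Zfp, transcription factor and olfactory receptor genes. Alternatives were other libraries, ranges, windows, coverage and CpG minimums, tile grids, tests, a replicate block, and each library left out in turn.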

Additional observations from a re-analysis of the deposited data

Results flagged for a closer look

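Among 64 groups of 5 libraries examined in the named and summary values, 2 had a library far from the other 4, and chance gives about 1 in 20. In the tile at 20297001 on chromosome 8 arsenic library 3 stood at 48.7%, against 55.9% to 58.7% in the other arsenic libraries; the control libraries ran from 44.2% to 59.1%. In the tile at 150082001 on chromosome 1, one of those with the smallest p, arsenic library 1 stood at 52.1% and the other 4 at 65.2% to 69.1%, against 42.7% to 55.8% in control.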

How the results depend on the processing

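Main values were 56.1% uniform and 13.4% split tiles, 70.3% of CpGs at 30% to 70%, and a median mixing index of 0.0867. With CpG levels from the control libraries the shares were 59.6% uniform, 11.1% split and 72.5% of CpGs. With a range of 20% to 80% they were 77.8%, 6.29% and 83.3%. With at least 12 CpGs (332 tiles) they were 61.4%, 9.34% and 73.5%, and the index was 0.0727. A window of 40% to 60% (1879 tiles) gave 52.5% uniform and 68.2% of CpGs. Coverage of at least 20 (404 tiles) gave 61.4%, 12.1%, 73.3% and 0.0715. CpGs with both strands only (248 tiles) gave 71.0%, 7.66%, 79.7% and 0.0449. A grid shifted by 500 bp gave 68.5% of CpGs and an index of 0.0932. Tiles chosen on arsenic and measured in control were 11.9% split. The causes were not tested, apart from the wider range and smaller sets, which follow from the settings. Uniform tiles outnumbered split ones in each of these settings.

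Leaving out each arsenic library in turn gave 54.8% to 56.9% uniform, 12.4% to 13.4% split, 69.6% to 70.1% of CpGs at 30% to 70%, an index of 0.0848 to 0.0888, and 2884 to 2931 CpGs that differ from their tile (3047 with all 5). That count was 1726 (15.9%, against 1.73% of all CpGs) with a minimum deviation of 30 points and 1144 (26.2%, against 3.26%) at coverage of at least 20, where 4373 CpGs were left.

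In the comparison of arsenic with control, 0 intermediate tiles were called without any 1 library, without control libraries 4 and 5, at coverage of at least 20 and by limma, and 41 by the binomial test. Of all tiles, limma called 0.0006%, the binomial test 1.20% and the other settings 0%. At an unadjusted p under 0.05 the 74 became 69 to 86 without 1 library, 28 with limma, 495 with the binomial test and 30 at coverage of at least 20. As shares, these are 7.36% to 9.17%, 2.99%, 52.8% and 7.43% of the intermediate tiles, against 5.51% to 5.91%, 5.14%, 40.7% and 5.82% of all tiles. The mean difference of -1.06 points was -1.36 to -0.678 without 1 library, and -0.647 without control libraries 4 and 5. The labels number the libraries but state no pairing, and deviations of same-numbered libraries correlated at -0.0097 to 0.0378. For arsenic libraries 1 and 3 this exceeded the correlation with any other control library, and for 2, 4 and 5 it did not. Such low values cannot settle whether the libraries were paired. A replicate block called 0 intermediate tiles and 0% of all tiles. It gave 104 at an unadjusted p under 0.05 (11.1%, against 6.73% of all tiles). The mean difference stayed at -1.06 points by arithmetic, since each number occurs once in each group. Of 245 values of single tiles under these settings, 207 stayed, 33 moved, 5 became calls under the binomial test and 0 changed sign. Some of these values could not change. The mixing index of a tile does not depend on the range or the window, and its difference does not depend on the test. The count that stayed is therefore not a measure of robustness.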
